A study of Mus musculus with 12 samples.

Results

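The fibrinogen chain genes Fga, Fgb and Fgg were followed in kidney RNA of mice whose livers had been made ischemic, and they make up 3 of the 14091 genes counted. They were chosen by their symbols, with their levels in the HFD + hIRI kidneys already known. Every comparison that holds the HFD + hIRI group is therefore given for the chains as a description, with its standard error and with no test. All 3 were in the table and none was removed by the filter on low counts.

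Fibrinogen is the soluble plasma protein that thrombin turns into fibrin, the mesh of a blood clot. Each molecule is a dimer of alpha, beta and gamma chains, encoded by Fga, Fgb and Fgg, which are joined by disulfide bonds in the endoplasmic reticulum before export. Hepatocytes make nearly all of the plasma protein, and as an acute phase protein it is made in larger amounts after interleukin-6 signaling through STAT3, with glucocorticoids and C/EBP factors. Kidney tubule cells are known to be able to make fibrinogen RNA and protein after injury.

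The study asked how a fatty liver changes kidney injury after hepatic ischemia-reperfusion injury (hIRI). Wild-type C57BL/6 mice aged 10 weeks were fed for 12 weeks on a high fat diet (HFD) with 29% fat, 12.6% protein and 46.2% carbohydrate, or on a normal diet (ND) with 10% fat, 20% protein and 70% carbohydrate. In the HFD + hIRI and ND + hIRI groups the pedicle supplying 2 liver lobes, left lateral and right median, was clamped for 60 min, and in the HFD + sham and ND + sham groups it was not. Kidneys were taken after 6 h, with 3 libraries in each of the 4 groups, and each library was taken as 1 mouse. The kidneys themselves were not clamped, and the remaining liver lobes kept their blood supply.

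The libraries held 20874584 to 29451344 counts over all genes. Markers of kidney cells were present in every library, from Slc34a1 of the proximal tubule at 2839 to 5109 CPM to Nphs1 of the podocyte at 20.9 to 35.5 CPM, where CPM is the read count scaled to library size, with TMM scaling factors that balance library composition. The ND + hIRI replicate 1 kidney stood apart from the other 2 of its group in Fga and Fgg. It lay near the sham kidneys in these chains and in several markers of tubular injury. Some results that rest on it are therefore also given without it. The HFD + hIRI replicate 1 kidney was the most extreme in injury markers, with 92.5 CPM of Havcr1 (kidney injury molecule-1) against 18.6 and 6.41 CPM in replicates 2 and 3. The library names fall into a lower and a higher run of numbers, which the labels do not call a batch. The higher run holds every HFD + hIRI kidney and 1 HFD + sham kidney, so a comparison of these groups within it rests on that 1 sham library.

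The 3 genes lie side by side on mouse chromosome 3 within 41.9 kb. In the deposited table on mm10, Fgg runs from 83007896 to 83015049 and Fga from 83026153 to 83033617, both on the plus strand, with 1523 and 3360 bases of exon. Fgb runs from 83042305 to 83049790 on the minus strand, with 1573 bases of exon. The GENCODE M21 model of Fgb ends 2164 bases beyond the deposited one at its 3′ end, so reads from there, if any, were not counted for Fgb, while for Fga and Fgg the models differ by at most 172 bases at either end.

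The bases just before the start sites are printed because the chains share an interleukin-6 pathway and were high in the same kidneys. The RefSeq promoters (GRCm38.p6) show the 200 bases before each start in the direction of the gene, and the capitals mark the letters CTGGGA, the core of an interleukin-6 response element described in rat fibrinogen genes. They lie on chromosome 3 at chr3:83025953-83026152 for Fga, chr3:83049864-83050063 for Fgb and chr3:83007524-83007723 for Fgg.
Fga: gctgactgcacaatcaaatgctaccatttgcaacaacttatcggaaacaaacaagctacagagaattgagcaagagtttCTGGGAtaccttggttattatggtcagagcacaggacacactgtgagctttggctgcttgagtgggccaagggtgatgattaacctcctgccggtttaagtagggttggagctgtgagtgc
Fgb: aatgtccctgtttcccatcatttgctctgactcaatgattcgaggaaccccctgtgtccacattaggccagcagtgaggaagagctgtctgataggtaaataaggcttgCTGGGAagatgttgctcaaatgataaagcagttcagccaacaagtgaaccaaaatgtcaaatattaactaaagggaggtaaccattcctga
Fgg: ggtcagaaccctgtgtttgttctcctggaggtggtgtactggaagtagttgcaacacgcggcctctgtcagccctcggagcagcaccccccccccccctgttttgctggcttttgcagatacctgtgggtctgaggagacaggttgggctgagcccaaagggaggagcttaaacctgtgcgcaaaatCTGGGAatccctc
The letters CTGGGA begin 121 bases before the start of Fga, 91 before that of Fgb and 13 before that of Fgg. Searched on both strands of the 250 bases before the start, they occur in 27% of the 32851 promoters of the table. The C/EBP letters TTGCNNAA were found in Fga and Fgb and in 9.56% of all promoters. The STAT letters TTCNNNGAA were found in Fga and Fgb and in 7.02% of all. No match overlapped another, and all of these matches describe letters in the sequence, with no binding measured.

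Fga, the alpha chain, held the most reads of the 3 genes in every library. It had 4161, 3291 and 2282 CPM in HFD + hIRI kidneys, against 52.7, 64.3 and 110.0 CPM in HFD + sham kidneys. In ND + hIRI kidneys it had 65.9, 873 and 709 CPM, against 38.4, 60.6 and 38.7 CPM in ND + sham kidneys. The lowest HFD + hIRI kidney was above every other kidney, and ND + hIRI replicate 1 was within the range of the 6 sham kidneys, 38.4 to 110.0 CPM.

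Fgb encodes the beta chain, whose synthesis limits assembly of the molecule in cultured hepatic cells. It had 470.3, 266 and 132 CPM in HFD + hIRI kidneys, against 2.99, 2.44 and 3.07 CPM in HFD + sham kidneys. In ND + hIRI kidneys it had 6.30, 9.68 and 13.2 CPM, against 3.46, 2.32 and 2.73 CPM in ND + sham kidneys. Here the ND + hIRI kidneys, replicate 1 included, lay above all 6 sham kidneys, and they lay well below the HFD + hIRI kidneys. Replicate 1 of ND + hIRI also held the most albumin RNA of the 12 kidneys. For each albumin count it held 0.135 Fgb counts, against 0.138 or more in each of the 6 sham kidneys. ND + hIRI replicates 2 and 3 held 1.14 and 0.89 Fgb counts for each albumin count. How albumin RNA bears on the Fgb level of replicate 1 was not tested.

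Fgg encodes the gamma chain, which carries sites for integrins and for cross-linking by factor XIII. It had 2747, 2377 and 1345 CPM in HFD + hIRI kidneys, against 12.9, 13.2 and 23.4 CPM in HFD + sham kidneys. In ND + hIRI kidneys it had 19.9, 208 and 339 CPM, against 10.8, 10.7 and 20.3 CPM in ND + sham kidneys. Replicate 1 of ND + hIRI fell within the ND + sham range for this chain.

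**Figure D1:**
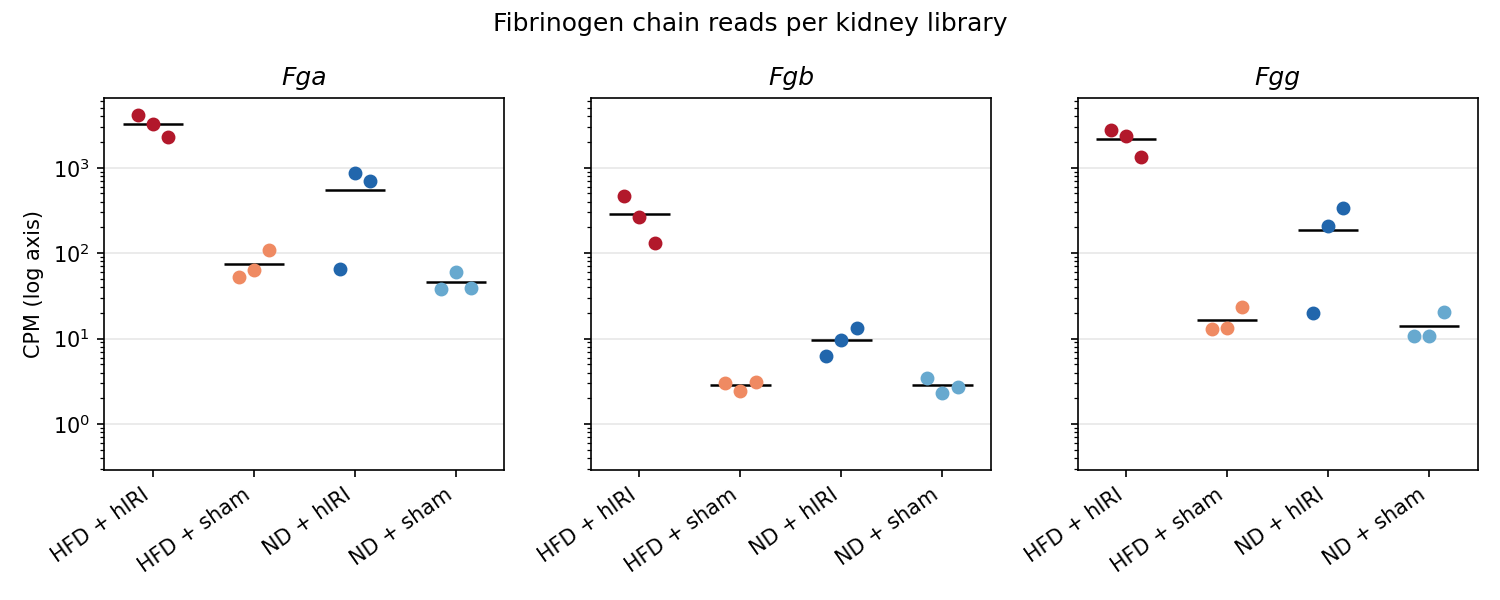
Fibrinogen chain levels in the 12 kidney libraries, as CPM on a log axis, with 1 panel per gene, 1 point per library and a bar at the mean of 3. The HFD + hIRI points lie above all others in each panel, and ND + hIRI replicate 1 lies at 65.9 CPM for Fga and 19.9 CPM for Fgg, within the range of the sham kidneys.

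Together the chains took 0.640%, 0.554% and 0.365% of all counts in HFD + hIRI kidneys, against 0.00710%, 0.00832% and 0.0142% in HFD + sham kidneys. The shares were 0.00949%, 0.107% and 0.106% in ND + hIRI kidneys, against 0.00531%, 0.00759% and 0.00669% in ND + sham kidneys. Ranked by CPM per kb of exon among the 14091 genes, Fgg stood at places 21, 21 and 50 and Fga at places 35, 43 and 82 in HFD + hIRI kidneys. In HFD + sham kidneys Fgg stood at places 6267, 6181 and 4198 and Fga at places 4166, 3537 and 2203. Fgb reached places 318, 498 and 966 in HFD + hIRI kidneys, against 10663, 11141 and 10713 in HFD + sham kidneys.

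Fga averaged 3245 ± 940.2 CPM in HFD + hIRI, against 75.7 ± 30.3 CPM in HFD + sham kidneys (SD, n = 3 each), a log2 fold change of 5.42 (SE 0.80). Fgb averaged 290 ± 170.1 CPM in HFD + hIRI, against 2.83 ± 0.339 CPM in HFD + sham kidneys, a log2 fold change of 6.67 (SE 0.49). Fgg averaged 2156 ± 727 CPM in HFD + hIRI, against 16.5 ± 5.96 CPM in HFD + sham kidneys, a log2 fold change of 7.03 (SE 0.92). These are folds of 42.9, 102 and 131, and they placed Fgg, Fgb and Fga at positions 7, 9 and 17 among all genes ordered by log2 fold change. The chains were selected on this contrast, so their position in it is no result. Within the higher run of library numbers Fga had 2282 to 4161 CPM in the HFD + hIRI kidneys, against 110.0 CPM in the 1 HFD + sham kidney, and Fgg had 1345 to 2747 against 23.4 CPM. The libraries of both groups did not overlap for any of the 3 chains, nor for 23.1% of all genes in the same direction, and 11.4% of all genes passed the test as higher and 8.47% as lower.

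Against ND + hIRI kidneys the log2 fold change in HFD + hIRI kidneys was 2.56 (SE 0.70) for Fga, 4.90 (SE 0.45) for Fgb and 3.51 (SE 0.77) for Fgg. The 3 folds were 5.91, 29.8 and 11.4, and the beta chain stood at position 2 among all genes ordered by log2 fold change. ND + hIRI kidneys averaged 549 ± 426 CPM of Fga, 9.73 ± 3.45 CPM of Fgb and 189 ± 160.4 CPM of Fgg (SD, n = 3). Without ND + hIRI replicate 1 the log2 fold change was 2.04 for Fga and 2.98 for Fgg. The HFD + hIRI libraries lay above the ND + hIRI libraries for all 3 chains, as they did for 12.2% of all genes, and 0.532% of all genes passed the test as higher and 0.816% as lower. These 75 and 115 genes, 190 in all, are an unsteady count, which became 4 without ND + hIRI replicate 2, 2559 without HFD + hIRI replicate 3, 9 to 117 without any other library and 0 with only the 6 libraries compared. DESeq2 called 946 as higher and 837 as lower. This contrast too was in view when the chains were chosen.

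The response to hIRI on the normal diet was tested, although its ND + hIRI libraries also serve in a contrast on which the chains were selected. Fga was higher in ND + hIRI than in ND + sham kidneys by a log2 fold change of 3.58 (SE 0.73), Fgg by 3.76 (SE 0.79) and Fgb by 1.77 (SE 0.43). None of the 3 passed the edgeR quasi-likelihood test at an adjusted p under 0.05, with adjusted p of 0.118 for Fga, 0.124 for Fgg and 0.1505 for Fgb. In this comparison 0 of all 14091 genes passed (0%) by that test and by limma voom, and 2030 had an unadjusted p under 0.05. The edgeR likelihood ratio test called 243 genes as higher and 97 as lower, and DESeq2 298 and 146. Both of these tests called all 3 chains, with the edgeR likelihood ratio test giving adjusted p of 2.73e-04 for Fga, 0.00362 for Fgb and 4.10e-04 for Fgg.

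The outcome of that test rested on ND + hIRI replicate 1. That library was set apart after its low chain levels were seen, so the fit without it is no independent test of the chains. Without that library 339 of all genes passed the edgeR quasi-likelihood test as higher and 192 as lower, all 3 chains among the higher, at adjusted p of 0.00114 for Fga, 0.0369 for Fgb and 0.00217 for Fgg and log2 fold changes of 4.11, 2.01 and 4.29. Leaving out any other single library brought none of the chains under 0.05, and over all alternatives the adjusted p ran up to 0.452 for Fga, 0.501 for Fgb and 0.449 for Fgg. Libraries of the 2 groups did not overlap for Fga and Fgb, as for 10.9% of all genes with higher ND + hIRI values, and they overlapped for Fgg. What sets replicate 1 apart was not tested. Of the 174 genes of the lists described here 0 passed the quasi-likelihood test in this comparison, 56 had an unadjusted p under 0.05, and the likelihood ratio test called 22, DESeq2 25 and limma voom 0.

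No chain passed the test between the diets in sham kidneys. In HFD + sham kidneys Fga averaged 75.7 ± 30.3 CPM against 45.9 ± 12.7 CPM in ND + sham kidneys, a log2 fold change of 0.72 (SE 0.67, adjusted p = 0.831 by the edgeR quasi-likelihood test). Fgb averaged 2.83 ± 0.339 CPM in HFD + sham and 2.84 ± 0.578 CPM in ND + sham kidneys, a fold of 1.00 (adjusted p = 1.00). Fgg averaged 16.5 ± 5.96 CPM in HFD + sham and 13.9 ± 5.53 CPM in ND + sham kidneys, a log2 fold change of 0.24 (SE 0.73, adjusted p = 0.964). All 3 chains overlapped between the sham groups. Folds within 1 SE of these estimates span 1.04 to 2.62 for Fga, 0.732 to 1.36 for Fgb and 0.715 to 1.96 for Fgg. Of all genes 2 passed (0.0142%), both as lower, and 1240 had an unadjusted p under 0.05. The likelihood ratio test called 22 as higher and 23 as lower, DESeq2 64 and 68, limma voom 0, and the quasi-likelihood test on these 6 libraries alone 226.

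The response to hIRI was larger on HFD than on ND by 1.84 (SE 0.94) on the log2 scale for Fga, 4.90 (SE 0.61) for Fgb and 3.27 (SE 1.03) for Fgg. These differences contain the HFD + hIRI group and carry no test. Fgb thus had the largest difference between diets of the 3 chains and the smallest response on ND. Without ND + hIRI replicate 1 the values fell to 1.32 for Fga and 2.74 for Fgg.

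**Figure D2:**
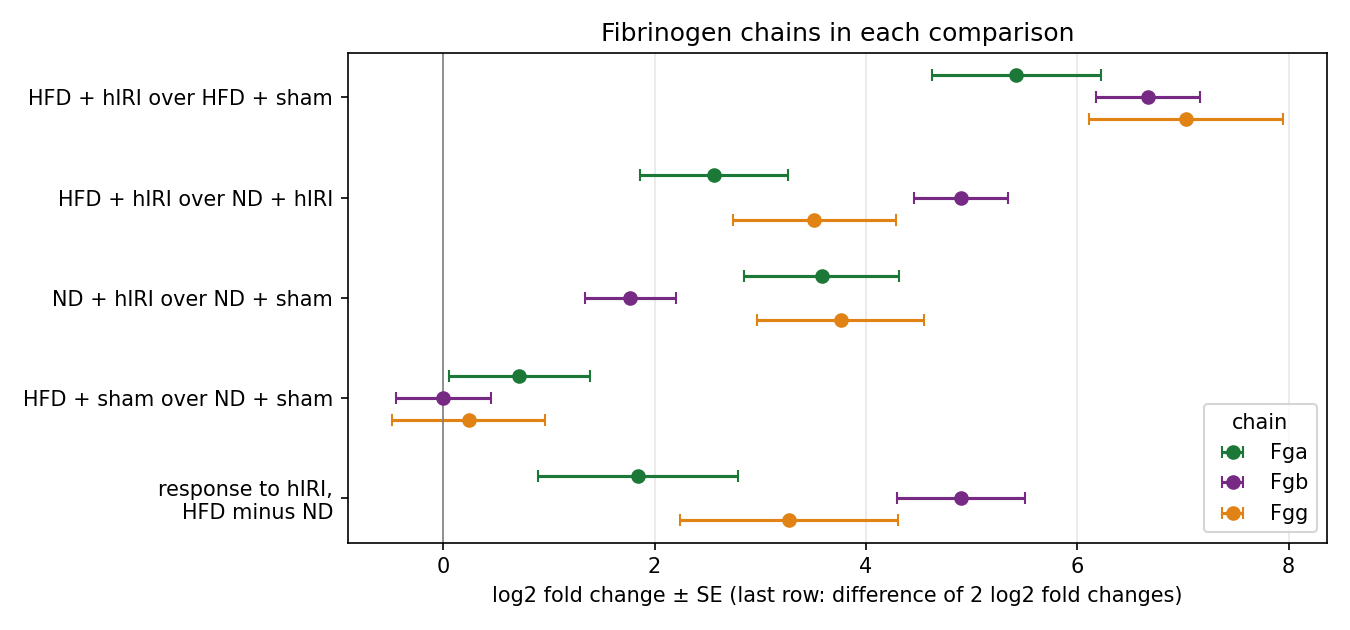
Log2 fold changes of the 3 chains with their standard errors from 1 edgeR fit of 12 libraries, with 1 row per comparison and the last row giving the response on HFD minus the response on ND. On ND the response of Fgb (1.77) lies below those of Fga (3.58) and Fgg (3.76), and against ND + hIRI Fgb has the highest value (4.90).

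The balance of the chains was read within each library from CPM per kb of exon. The gamma chain made up 53.6 to 57.6% in HFD + hIRI kidneys, against 29.6 to 32.5% in HFD + sham kidneys, 33.9 to 50.4% in ND + hIRI kidneys and 26.5 to 50.2% in ND + sham kidneys. The alpha chain made up 38.2 ± 2.72% in HFD + hIRI and 63.6 ± 2.93% in HFD + sham kidneys (SD, n = 3 each). In terms of the ratio per kb, Fgg exceeded Fga in all 3 HFD + hIRI kidneys, by 1.46, 1.59 and 1.30 fold. The same ratio was 0.540, 0.454 and 0.469 in HFD + sham kidneys, below 1 in all 3. In ND + hIRI kidneys it was 0.665, 0.526 and 1.06, against 0.619, 0.390 and 1.16 in ND + sham kidneys, so that both ND groups overlapped.

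The beta chain was the smallest of the 3 in every library. It made up 8.95, 6.25 and 5.11% of CPM per kb in HFD + hIRI kidneys, against 7.29, 5.29 and 3.90% in HFD + sham kidneys. In ND + hIRI replicates 2 and 3 it made up 1.53 and 1.90%, and in replicate 1 it made up 10.9%, against 10.6, 5.55 and 6.53% in ND + sham kidneys. Fga exceeded Fgb per kb by 42.2 and 25.1 fold in ND + hIRI replicates 2 and 3, against 4.14 to 8.07 fold in the HFD + hIRI kidneys, 8.26 to 16.8 fold in the HFD + sham kidneys and 5.20 to 12.2 fold in the ND + sham kidneys. In the 2 ND + hIRI kidneys with raised alpha and gamma chains the beta chain was thus the least matched to them. As a share of raw counts, with exact 95% binomial intervals that cover counting error only, Fgb was 6.37% (6.25 to 6.50%) in HFD + hIRI replicate 1. It was 0.888% (0.772 to 1.02%) in ND + hIRI replicate 2. No test was made of these shares, and how the shorter deposited Fgb model bears on its level beside the other chains was not tested.

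**Figure D3:**
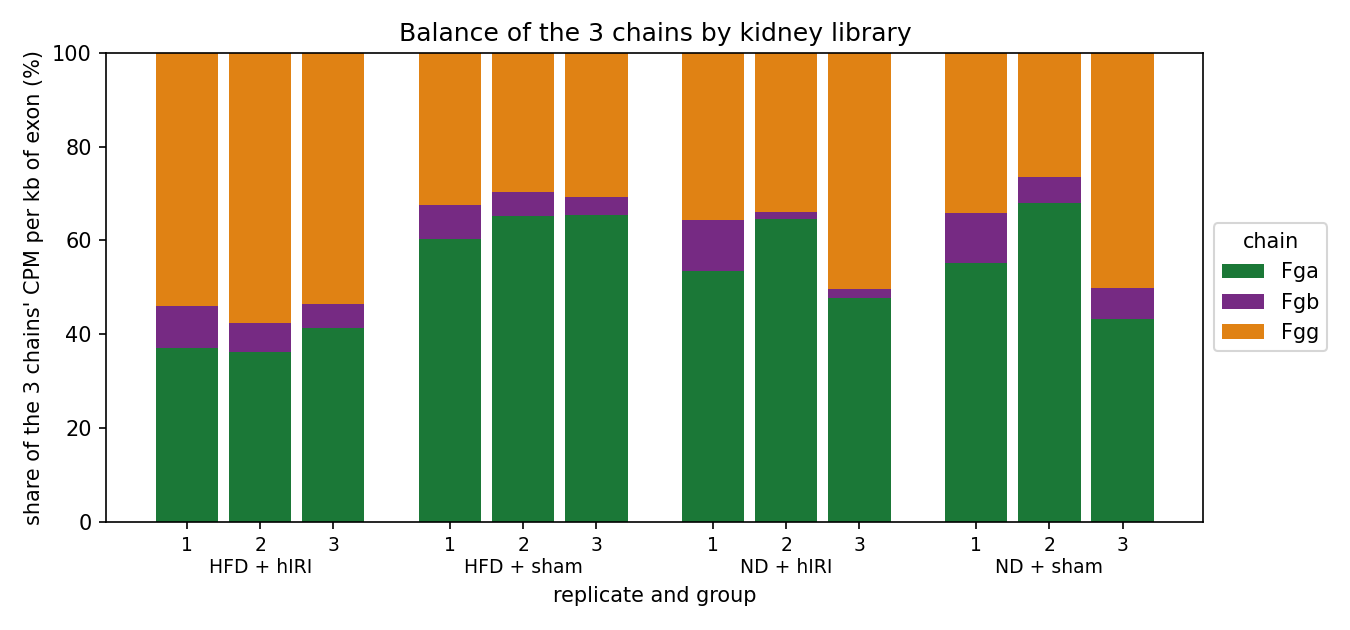
Share of each chain in the sum of the 3 chains' CPM per kb of exon, in percent, with 1 stacked bar per kidney library grouped by diet and procedure. Fgg holds 53.6 to 57.6% in the HFD + hIRI bars and 29.6 to 32.5% in the HFD + sham bars, and Fgb is the thinnest band throughout.

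Albumin, which hepatocytes express at very high levels, was read as the marker of liver RNA in the kidney libraries. Alb had 17.9, 15.5 and 18.4 CPM in HFD + hIRI kidneys, against 21.5, 15.6 and 13.9 CPM in HFD + sham kidneys. It had 46.7, 8.52 and 14.8 CPM in ND + hIRI kidneys, against 21.4, 16.7 and 19.6 CPM in ND + sham kidneys. For each Alb count there were 413, 382 and 204 counts of the 3 chains in HFD + hIRI kidneys, against 3.19, 5.11 and 9.80 in HFD + sham kidneys. The ND + hIRI kidney with the most Alb, replicate 1, was the one with the fewest fibrinogen reads of its group.

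Of 25 hepatocyte genes, Alb included, 17 were in the table, and their summed level was 484 to 608 CPM in HFD + hIRI, 401 to 606 CPM in HFD + sham, 420.5 to 499.7 CPM in ND + hIRI and 405.9 to 579 CPM in ND + sham kidneys. By mean over all 12 libraries the highest were Ttr (transthyretin, 190 CPM), Serpina1d (143 CPM) and C8a (38.9 CPM). The sums thus mainly follow Ttr and Serpina1d. In ND + hIRI replicate 1 Ahsg had 6.86 CPM, against 0.328 and 0.240 CPM in replicates 2 and 3. Apoa1 had 7.89 CPM there, against 2.99 and 4.27 CPM. Apoh was lower there, at 14.8 CPM against 24.5 and 17.2 CPM. Serpina1a, an antitrypsin gene, had 53.0 to 62.2 CPM in HFD + hIRI kidneys, against 28.8 to 39.3 CPM in HFD + sham kidneys, with no overlap (adjusted p = 0.211). Between these groups 1 of the 17 passed as higher, Serpina1b, one of its near-identical copies, with a log2 fold change of 1.88 (SE 0.37, adjusted p = 0.0164). Hrg (histidine-rich glycoprotein) passed as lower, at -0.72 (SE 0.21, adjusted p = 0.0375). The median of the list was 0.05 on the log2 scale, beside -0.01 for all genes.

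Platelets store fibrinogen protein and carry little RNA. Of 12 platelet and megakaryocyte genes 3 were in the table, Itga2b, Pf4 and Ppbp, summing to 4.24 to 7.80 CPM in HFD + hIRI, against 5.58 to 6.86 CPM in HFD + sham kidneys, and none passed, here or against ND + hIRI kidneys, by any of the 4 tests run, while 2 and 1 had an unadjusted p under 0.05. Pf4 was at 2.38 ± 1.33 CPM in HFD + hIRI, against 0.974 ± 0.362 CPM in HFD + sham kidneys (adjusted p = 0.0848 by the edgeR quasi-likelihood test). The 12 neutrophil and macrophage genes, led by Lyz2, Csf1r and C1qa, summed to 126 to 266 CPM in HFD + hIRI, against 143 to 369 CPM in HFD + sham kidneys. Csf1r, the receptor for macrophage growth factor, was the 1 gene of this list that passed, as lower, at -0.45 (SE 0.14, adjusted p = 0.0423). The list's median was 0.38 on the log2 scale, beside -0.01 for all genes, and 8 of the 12 had values above 0. All neutrophil genes of the list were among these 8, none of which passed, while most macrophage genes lay below 0. S100a8, a neutrophil gene, was at 20.1 ± 22.8 CPM in HFD + hIRI, against 10.8 ± 12.2 CPM in HFD + sham kidneys (adjusted p = 0.477), and Lyz2, a lysozyme gene, at 38.7 ± 8.38 against 78.7 ± 59.9 CPM (adjusted p = 0.159). In these bulk samples more cells that make a chain and more RNA per cell cannot be told apart.

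Injury markers of the tubule were high in the same HFD + hIRI kidneys as the chains. Of 10 such genes 8 passed as higher in HFD + hIRI than in HFD + sham kidneys, as did 11.4% of all genes, with a list median of 3.28 on the log2 scale beside -0.01 for all genes. Sox9, a transcription factor of repairing tubules, had 152, 55.9 and 32.1 CPM in HFD + hIRI kidneys, against 1.38, 1.16 and 2.17 CPM in HFD + sham kidneys (log2 fold change 5.67, SE 0.85, adjusted p = 0.0114). Lcn2, which encodes the injury marker NGAL, had 1389, 362 and 157 CPM in HFD + hIRI kidneys, against 16.7, 8.49 and 16.0 CPM in HFD + sham kidneys (5.53, SE 0.91, adjusted p = 0.0124). Clu (clusterin) and Spp1 (osteopontin) passed with log2 fold changes of 2.30 and 3.35. The order of the HFD + hIRI kidneys was the same for these 4 genes as for the 3 chains, with replicate 1 highest and replicate 3 lowest. The part of tubular injury in the chains' levels was not tested.

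Of the 10 injury markers 1 passed against ND + hIRI kidneys, Sox9, with a log2 fold change of 3.61 (SE 0.75, adjusted p = 0.0483), which held in 2 of the 12 fits that left out a library. ND + hIRI replicate 1 had 2.06 CPM of Sox9 and 15.0 CPM of Lcn2, the lowest of its group, against 14.9 and 103 CPM in replicate 3. The group means were 6.62 CPM of Sox9 and 72.5 CPM of Lcn2. Replicate 2, with high Fga and Fgg, thus lay near replicate 1 in Sox9 and near replicate 3 in Lcn2.

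Acute phase genes are grouped by the cytokines that induce them. Class 2 genes, like fibrinogen, answer to interleukin-6, and of 13 others counted here, 6 passed as higher in HFD + hIRI than in HFD + sham kidneys and none as lower, beside 11.4% and 8.47% of all genes (median 0.74, against -0.01). Lrg1, a secreted glycoprotein, had 400.1, 170 and 73.4 CPM in HFD + hIRI kidneys, against 9.38, 9.35 and 11.1 CPM in HFD + sham kidneys (log2 fold change 4.43, SE 0.60, adjusted p = 0.0096). Timp1, an inhibitor of metalloproteinases, had 18.6, 9.79 and 5.03 CPM in HFD + hIRI kidneys, against 0.820, 0.514 and 1.15 CPM in HFD + sham kidneys. Agt (angiotensinogen) and Cp (ceruloplasmin) passed with log2 fold changes of 1.07 and 0.64. Relative to ND + hIRI kidneys Cp (0.85, SE 0.14, adjusted p = 0.030) and Lrg1 (2.97, SE 0.56, adjusted p = 0.0412) passed, and 11 did not. When each library was left out in turn, Cp kept its call in 5 of 12 fits and Lrg1 in 1.

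Class 1 genes answer to interleukin-1 together with interleukin-6. Of 10 counted here, 5 passed as higher in HFD + hIRI than in HFD + sham kidneys and none as lower, beside the same shares of all genes, with a median of 2.19. Saa1, a serum amyloid A gene that may share reads with Saa2, had 173, 65.3 and 24.3 CPM in HFD + hIRI kidneys, against 1.51, 0.129 and 0.383 CPM in HFD + sham kidneys (log2 fold change 6.92, SE 0.92, adjusted p = 0.0096). Saa2 passed at 5.66 (SE 1.44, adjusted p = 0.0267) and Saa4 at 3.04 (SE 0.51, adjusted p = 0.0127). All 5 that passed were serum amyloid A genes or Lcn2, which is also counted among the injury markers. Saa1 was the 1 gene that passed against ND + hIRI kidneys, at 4.36 (SE 0.78, adjusted p = 0.0357), in 2 of the 12 such fits.

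**Figure D4:**
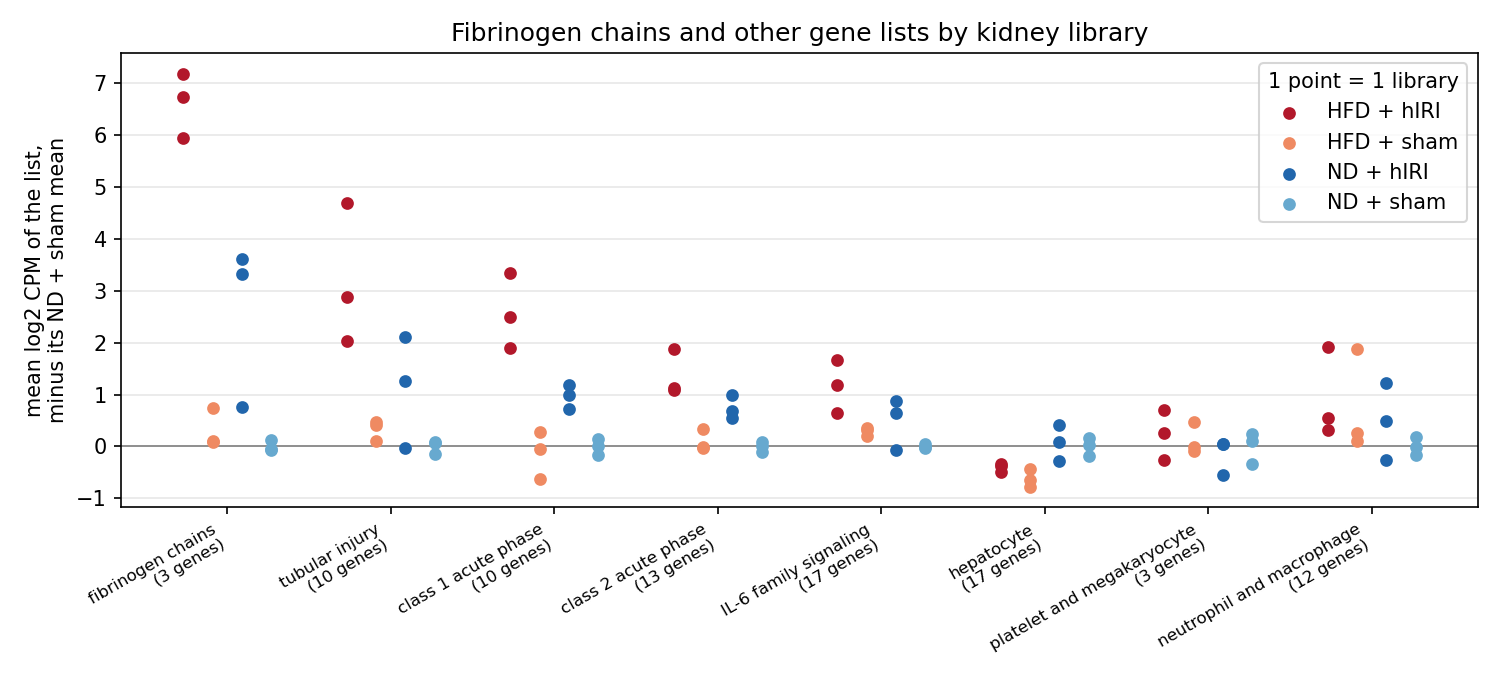
Mean log2 CPM of the 3 chains and of 7 gene lists in each kidney library, minus the mean of the ND + sham libraries, with 1 point per library. The chains reach 7.19, 6.73 and 5.95 in HFD + hIRI kidneys and injury markers 4.69, 2.88 and 2.03, while the hepatocyte list lies at -0.34, -0.38 and -0.50 there.

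The interleukin-6 family signals through the shared receptor Il6st (gp130), the kinases Jak1 and Jak2 and STAT3, with Socs3 as the feedback inhibitor. Of 17 of its genes in the table, 9 passed as higher and 2 as lower in HFD + hIRI than in HFD + sham kidneys (median 0.78), beside 11.4% and 8.47% of all genes. Stat3 had 652, 537 and 398 CPM in HFD + hIRI kidneys, against 150.1, 136 and 147 CPM in HFD + sham kidneys (log2 fold change 1.87, SE 0.31, adjusted p = 0.0124). Socs3 had 257, 102 and 40.8 CPM in HFD + hIRI kidneys, against 18.7, 9.13 and 17.1 CPM in HFD + sham kidneys (3.15, SE 0.69, adjusted p = 0.0195). The ligand gene Lif passed at 4.22 (SE 1.00) and Il6st at 0.50 (SE 0.12). Lif ran from 1.29 to 21.5 CPM in HFD + hIRI kidneys, against 0.511 to 0.918 CPM in HFD + sham kidneys. Il6, the gene of interleukin-6 itself, was not among the 17. The kinase gene Tyk2 passed as lower at -0.84 (SE 0.17). None of the 17 passed against ND + hIRI kidneys, and Tyk2 and Clcf1 had the smallest adjusted p, 0.0703 and 0.0812. By unadjusted p 9 were under 0.05, and the likelihood ratio test called 3, DESeq2 7 and limma voom 0.

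Of 11 transcription factor genes known to act on fibrinogen promoters, 3 passed as higher and none as lower in HFD + hIRI than in HFD + sham kidneys, Stat3, Cebpb and Cebpd, beside 11.4% and 8.47% of all genes. Cebpb had 201, 105 and 91.9 CPM in HFD + hIRI kidneys, against 54.5, 38.5 and 51.2 CPM in HFD + sham kidneys (log2 fold change 1.46, SE 0.27, adjusted p = 0.0146). Cebpd passed at 2.06 (SE 0.60, adjusted p = 0.0381). The median of the list was -0.05, and none of the 11 passed against ND + hIRI kidneys, where Cebpb had an adjusted p of 0.0577. There 4 had an unadjusted p under 0.05, and the likelihood ratio test called 1, DESeq2 2 and limma voom 0.

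Thrombin and factor XIII make the fibrin clot from fibrinogen, and plasmin dissolves it. Of 31 clotting, anticoagulant and fibrinolysis genes in the table, 9 passed as higher and 2 as lower in HFD + hIRI than in HFD + sham kidneys (median 0.26, beside -0.01 for all genes), where 11.4% and 8.47% of all genes did. Among 11 clotting factors F3 (tissue factor) had 144, 30.4 and 13.4 CPM in HFD + hIRI kidneys, against 15.9, 14.9 and 13.3 CPM in HFD + sham kidneys (log2 fold change 2.09, SE 0.64, adjusted p = 0.0443). Replicate 1 held the high value, and F3 kept its call in 3 of the 12 fits that left out a library, not in the one without that kidney. F13a1, the catalytic subunit of the enzyme that cross-links fibrin, had 24.4, 10.3 and 10.2 CPM in HFD + hIRI kidneys, against 4.49, 3.09 and 6.99 CPM in HFD + sham kidneys (1.62, SE 0.49, adjusted p = 0.0414). Klkb1 (plasma prekallikrein) and F8 passed as lower, at -1.68 (SE 0.31) and -0.88 (SE 0.17). F2, which encodes prothrombin, the zymogen of thrombin, was at 0.413, 0.268 and 0.646 CPM in HFD + hIRI kidneys, against 0.295, 0.429 and 0.383 CPM in HFD + sham kidneys (adjusted p = 0.839).

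Of the 9 anticoagulant genes 2 passed, both as higher, beside 11.4% of all genes. Serpina10, the protein Z-dependent inhibitor of factor X, had 9.09, 6.31 and 3.00 CPM in HFD + hIRI kidneys, against 1.18, 0.643 and 1.06 CPM in HFD + sham kidneys (log2 fold change 2.65, SE 0.46, adjusted p = 0.0128). Pros1 (protein S) passed at 0.67 (SE 0.17, adjusted p = 0.0263).

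Of the 11 fibrinolysis genes 5 passed as higher and none as lower, beside 11.4% and 8.47% of all genes. They included both inhibitors and activators of plasminogen cleavage. Plaur, the urokinase receptor, had 142, 18.9 and 10.5 CPM in HFD + hIRI kidneys, against 9.05, 6.52 and 8.52 CPM in HFD + sham kidneys (log2 fold change 2.82, SE 0.84, adjusted p = 0.0408). S100a10, a plasminogen receptor subunit, passed at 1.65 (SE 0.41), Serpine2 at 0.63 (SE 0.19) and Plat, the tissue activator, at 0.94 (SE 0.29). Plg (plasminogen) itself was at no more than 0.138 CPM in HFD + hIRI kidneys and 0.525 CPM in HFD + sham kidneys.

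Against ND + hIRI kidneys none of the 31 genes passed the edgeR quasi-likelihood test, while 14 had an unadjusted p under 0.05, and the edgeR likelihood ratio test and DESeq2 each called 4 as higher and 3 as lower. Their median was 0.33, beside 0.00 for all genes. Without HFD + hIRI replicate 3 the quasi-likelihood test called 7 as higher and 3 as lower, in a fit that called 1473 of all genes as higher and 1086 as lower. Kng2, a kininogen gene that may share reads with Kng1, and Klkb1 had the smallest p of the clotting factors, with adjusted p of 0.0694 and 0.0743.

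**Figure D5:**
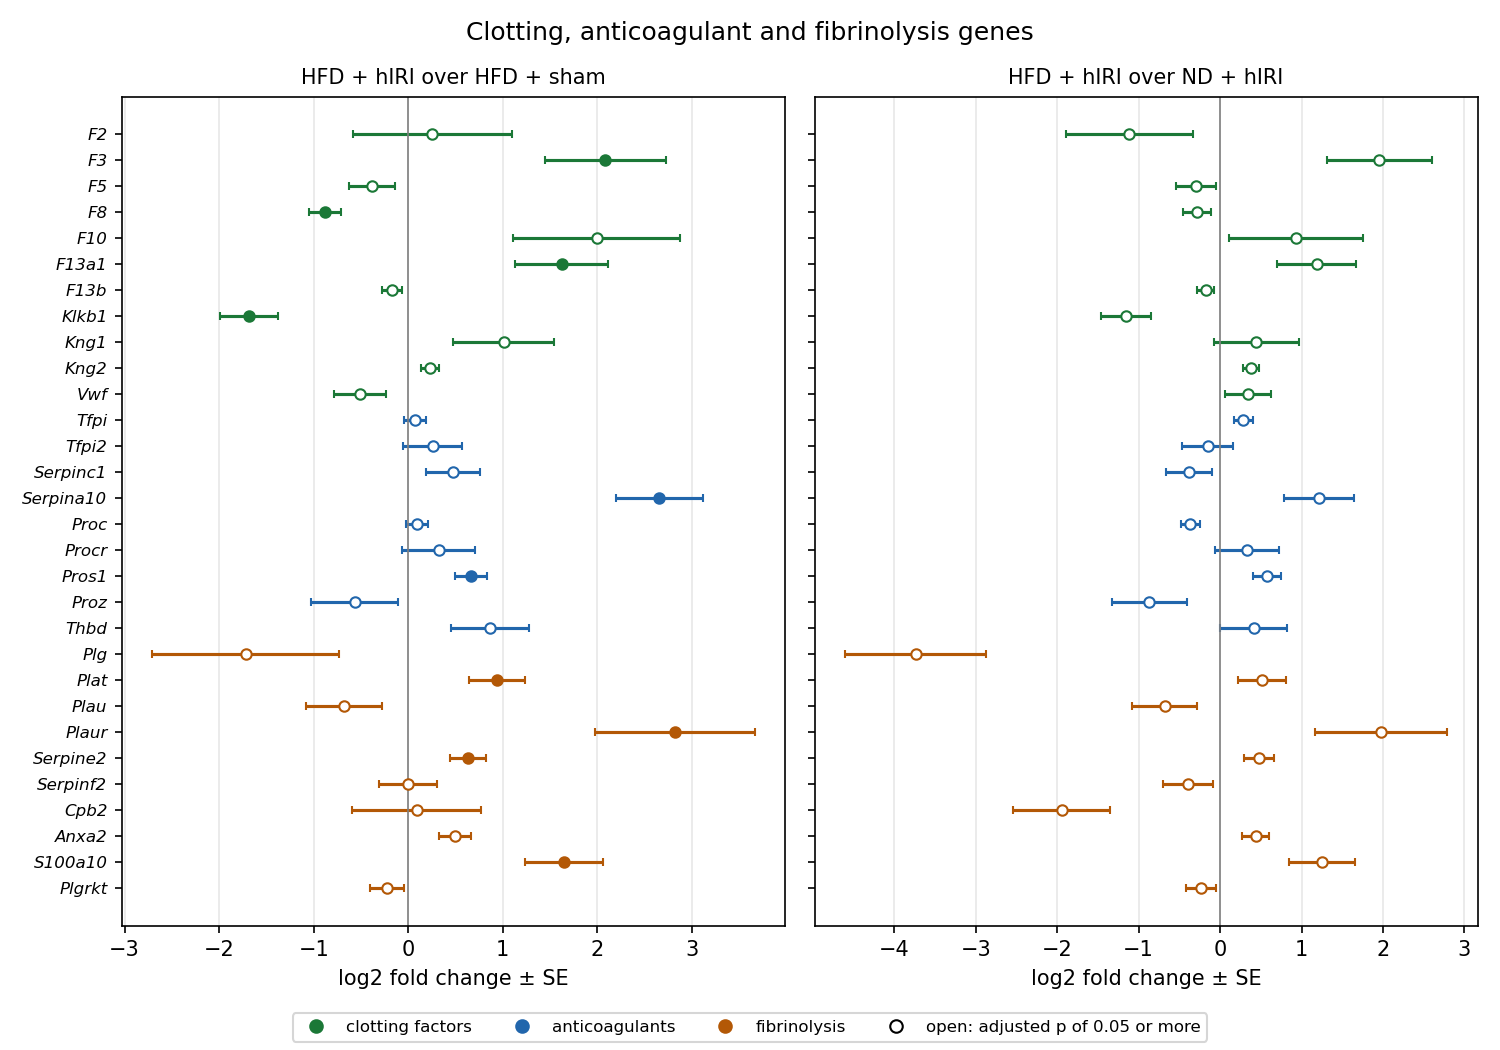
Log2 fold changes with standard errors of 30 of the 31 clotting (green), anticoagulant (blue) and fibrinolysis (brown) genes, filled where the adjusted p was under 0.05, in HFD + hIRI over HFD + sham (left) and over ND + hIRI (right). In the left panel 8 of the plotted genes are filled to the right of 0 and 2 to the left, and in the right panel none is filled. The gene left out of the plot also passed as higher in the left comparison.

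The calls for listed genes between HFD + hIRI and HFD + sham kidneys depended on single libraries. By the naming rule 45 genes of the lists passed there, and all 45 kept their direction without any 1 library. Without HFD + sham replicate 2, 0 of the 45 still passed and 1 of all 14091 genes did, without replicate 3 the counts were 3 and 45, and without replicate 1 they were 14 and 276. With the run of library numbers as a covariate 2 of the 45 passed. The split of all calls was 1607 higher and 1194 lower, against 852 higher and 2112 lower when scaled by library totals alone and 1052 higher and 1621 lower with upper quartile scaling, which moved the median of all genes to -0.17 and -0.12. Of the difference between diets in the response to hIRI, none of the 174 genes of all lists passed by the edgeR quasi-likelihood test, where 0.0142% of all genes did, while 19 had an unadjusted p under 0.05, and the likelihood ratio test called 1, DESeq2 1 and limma voom 0.

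Within the fibrinogen domain family, whose members share the globular fold of the beta and gamma chain ends, 1 of 16 genes passed as higher in HFD + hIRI than in HFD + sham kidneys and 3 as lower, beside 11.4% and 8.47% of all genes. Fgl2, a membrane prothrombinase of endothelium and macrophages, had 112, 50.7 and 26.9 CPM in HFD + hIRI kidneys, against 12.4, 11.6 and 18.7 CPM in HFD + sham kidneys (log2 fold change 2.15, SE 0.63, adjusted p = 0.0395). Tnn (tenascin-N) passed as lower at -2.62 (SE 0.36, adjusted p = 0.0096), with Angptl6 at -1.67 and Angpt1, a vessel-stabilizing ligand, at -0.82. Fgl1, a liver relative of the chains, had 2.01 to 2.63 CPM in HFD + hIRI kidneys, against 3.04 to 3.32 CPM in HFD + sham kidneys (adjusted p = 0.439). Tnn was also the 1 gene of the family that passed against ND + hIRI kidneys, at -1.68 (SE 0.36, adjusted p = 0.0486), in 1 of the 12 fits that left out a library.

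Of the other genes in the deposited file, 2 lay within 500 kb of the cluster. Plrg1, a spliceosome gene 5.75 kb beyond the 5′ end of Fgb, ranged from 27.4 to 38.8 CPM over all libraries, with a log2 fold change of 0.30 (SE 0.09, adjusted p = 0.0389) in HFD + hIRI over HFD + sham kidneys. That call ended in most alternatives run, among them library totals alone (0.13, adjusted p = 0.255), upper quartile scaling (0.19, adjusted p = 0.130), the likelihood ratio test (adjusted p = 0.0565) and the fits without 1 HFD + sham library (adjusted p of 0.0905 to 0.136). Lrat, which makes retinyl esters, lies 104 kb away on the other side, and ranged from 2.92 to 7.01 CPM with a log2 fold change of 0.69 (SE 0.28, adjusted p = 0.0909). Neither passed against ND + hIRI kidneys.

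Over the 12 libraries the log2 CPM of the chains had Pearson correlations of 0.99 between Fga and Fgg, 0.96 between Fgb and Fgg and 0.93 between Fga and Fgb. Of the 12171 other genes whose mean log2 CPM was 1 or more, 395 had a correlation above 0.9 with the mean of the 3 scaled chains. Differences between the 4 groups enter these correlations, which were not computed within groups. The most alike were Ppp2r1b (0.985), a scaffold subunit of protein phosphatase 2A, Lrg1 (0.979), Cldn5 (0.979), a tight junction protein of endothelium, Tmx1 (0.975), an oxidoreductase of the endoplasmic reticulum, and Lcn2 (0.973). They were followed by Sox9 (0.972), Spp1 (0.972), Bcl3 (0.972), a coactivator of the NF-κB family, and Akr1b7 (0.971), an aldo-keto reductase. With Spearman's correlation 2 of the first 10, Lrg1 and Sox9, stayed among the first 10. The levels behind these correlations differed in size, since Ppp2r1b had 103 ± 18.9 CPM in HFD + hIRI kidneys, against 44.9 ± 4.04 CPM in HFD + sham kidneys, and Bcl3 had 34.8 ± 15.3 CPM in HFD + hIRI kidneys, against 5.39 ± 0.770 CPM in HFD + sham kidneys (SD, n = 3 each).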

How the data were processed

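Kidney RNA of 12 mice was analysed in 4 groups of 3. Reads were aligned to mm10, and the submitters' processing notes list STAR (2.7.10a), featureCounts (Subread 2.0.3), edgeR (3.42.4) and FastQC (0.11.5). The deposited values used are read counts per gene and gene lengths in exon bases, both made by the authors. Neither the annotation nor the strand setting nor a filter before deposit is given in the sources used here. Where strand was ignored, reads of a gene and its antisense partner cannot be told apart, and genes with near-identical copies (Saa1 and Saa2, the Serpina1 and Serpina3 genes, Kng1 and Kng2) are uncertain. The authors' deposited log2 CPM, and their p-values, FDR and fold changes for 4 comparisons, were not used.

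TMM factors scaled the counts, and filterByExpr removed no gene, in edgeR 4.0.16 under R 4.3.3. A robust quasi-likelihood model with 1 mean per group covered all 12 libraries, and p-values were adjusted by Benjamini-Hochberg over 14091 genes, with calls at 0.05. The standard error is the log2 fold change divided by the square root of the F statistic. The fit was also run on simulated counts with known changes, and the outcome is not reported here. Alternatives were the edgeR likelihood ratio test, DESeq2 1.42.0, limma voom (limma 3.58.1), other scalings and filters, fewer libraries and added covariates, such as the replicate number as a block. No label says that a replicate number pairs mice. Deviations from the group means correlated above 0.1 for all 3 numbers between ND + hIRI and ND + sham only (0.170 to 0.197). Between other groups they ran from -0.42 to 0.21, with 0.147, 0.124 and 0.0863 between HFD + sham and ND + sham. The numbers were read as possible pairs in the first case only, and the main test used no pairing. In both ND groups replicate 1 is in the lower run of library numbers and replicates 2 and 3 are in the higher run. Pairs and runs cannot be told apart there. P-values measure the spread between these libraries only, and binomial intervals cover counting error only.

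The members, the gene lists and the naming rule were chosen with earlier results of these data known. In each list the text names up to 4 genes per direction, those of smallest p that passed, or 2 where none did. For other cell types Alb and the 3 highest genes are also named, with the 10 genes most alike by correlation and all neighbours within 500 kb. F2, Plg, Plat, Serpina1a, Ahsg, Apoa1, Apoh, S100a8, Fgl1 and Havcr1 were chosen after their values were seen. Promoters are from the RefSeq table (GRCm38.p6), where all 3 chains were matched. Some genes that the naming rule picks are counted but not reported here.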

Additional observations from a re-analysis of the deposited data

How the results depend on the processing

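The mean log2 fold change of the 3 chains was 6.37 in HFD + hIRI over HFD + sham and ran from 6.04 to 6.64 when single libraries were left out, and over ND + hIRI it was 3.66 (3.23 to 4.07). The mean difference between diets was 3.34 (2.90 to 3.75). With the run of library numbers as a covariate the first value was 5.71, and all of these values stayed positive in every alternative run. In ND + hIRI over ND + sham 3 chains were called by the likelihood ratio test, by DESeq2 and, in an alternative chosen after seeing the data, without the first hIRI library of both diets, and 0 to 3 when single libraries were left out. In HFD + sham over ND + sham the count was 0 throughout.

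The 9 clotting genes higher in HFD + hIRI over HFD + sham became 5 with library totals alone, 5 with the replicate block, 3 with only the 6 libraries compared and 0 with the run as a covariate, and ran from 0 to 10 without single libraries. The 2 lower ones became 0 with the run as a covariate and ran from 0 to 3. Within the higher run alone, also chosen after seeing the data, both counts were 0. Over ND + hIRI the counts of 0 became 4 higher and 3 lower with the likelihood ratio test and with DESeq2, 1 lower with library totals alone, and ran from 0 to 7 higher and 0 to 3 lower without single libraries. The causes were not tested.

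The replicate block changed no call of a chain. In ND + hIRI over ND + sham, where the numbers were read as possible pairs, the log2 fold changes under the block were 3.39 for Fga, 1.82 for Fgb and 3.57 for Fgg (adjusted p of 0.190, 0.214 and 0.190). For the other groups the libraries share only a number. The lowest count of a chain was 57, and no protein was measured here.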

Other observations

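Fibrinogen has to be folded and exported, and 16 genes of folding and export in the endoplasmic reticulum were examined. In HFD + hIRI over HFD + sham kidneys 3 passed as higher and 2 as lower, beside 11.4% and 8.47% of all genes, with a median log2 fold change of -0.07. Dnajb9, a chaperone partner induced by unfolded protein, had 168 ± 55.0 CPM in HFD + hIRI, against 81.2 ± 4.67 CPM in HFD + sham kidneys (1.05, SE 0.23, adjusted p = 0.0201). The translocon gene Sec61a1 passed at 0.36 (SE 0.10, adjusted p = 0.036) and the cargo receptor gene Surf4 at 0.49 (SE 0.15, adjusted p = 0.0414), and both lost their call with library totals alone. Pdia4, a disulfide isomerase, passed as lower at -0.59 (SE 0.15, adjusted p = 0.0258) and the chaperone gene Hsp90b1 at -0.37 (SE 0.12, adjusted p = 0.0499). Against ND + hIRI kidneys none of the 16 passed, 5 had an unadjusted p under 0.05, and Sec61b (0.34) and Surf4 (0.43) had the smallest p.

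Of 12 genes for receptors of fibrinogen and fibrin, 4 passed as higher and none as lower in HFD + hIRI over HFD + sham kidneys, beside 11.4% and 8.47% of all genes, with a median of 0.51. Icam1, an endothelial adhesion molecule that binds fibrinogen, had 65.2 ± 15.1 CPM in HFD + hIRI, against 29.1 ± 1.46 CPM in HFD + sham kidneys (1.16, SE 0.22, adjusted p = 0.0162). The integrin genes Itga5 (0.88, SE 0.20), Itgav (0.54, SE 0.17) and Itgb1 (0.49, SE 0.16) passed too, the last 2 at adjusted p of 0.045 and 0.0494, and these 2 lost their call with library totals alone. None of the 12 passed against ND + hIRI kidneys by any of the 4 tests run, and 2 had an unadjusted p under 0.05. All of these calls ended without HFD + sham replicate 2.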
